A study of Mus musculus with 9 samples.

Results

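The genes described are 41 transcription factors of the basic leucine zipper (bZIP) family outside the Fos and Jun genes of AP-1: the C/EBP genes, of which C/EBPβ is the one knocked out here, and their relatives of the ATF, CREB, PAR, BATF, MAF and CNC subfamilies. They were chosen by gene name as possible partners or substitutes of C/EBPβ, with 1 probe per gene, and 39 of the 41 were among the 21737 genes tested. Expression was measured in whole stomachs of newborn mice killed at birth, with 1 Agilent array in 1 colour per mouse. The source field of the labels says old for these mice, in conflict with the treatment protocol and the design text, which the word newborn follows here. The KO group held 5 mice labelled as C/EBPβ knockouts and the WT group 4 wild-type mice. The labels number each mouse within its group and give no strain, no allele and no sex, and they do not say how the gene was inactivated. The sample titles add a further number or code for each mouse, whose meaning is not stated. No other agent or allele is named for either group. Each level is a log2 signal scaled so that the 75th percentile of its array is 0, and each difference is KO minus WT.

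Proteins of this family bind DNA as dimers: a leucine zipper joins the partners and a stretch of basic residues touches the DNA. C/EBP proteins pair with each other and, across subfamilies, with ATF-type factors, and the mix of partners sets which sites are bound. C/EBPβ is known for roles in differentiation of epithelial, fat and myeloid cells, in acute-phase and inflammatory gene expression and in liver metabolism, and its relative C/EBPα for growth arrest during differentiation. Other members answer to cyclic AMP (CREB, CREM and ATF1), to amino acid shortage and unfolded protein (ATF4, XBP1 and ATF6), to oxidants (NRF2, encoded by Nfe2l2) or to the circadian clock (HLF, TEF and NFIL3).

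The promoters shown are those of Cebpb, of Atf5 and of the 3 members with a window that holds TGACGTCA, and these 3 were chosen for that motif and not for their differences. Atf2 and Bach2, described below, have windows with neither TGACGTCA nor its core TGACG, and Maf had none in the table. Each is the 100 bases before a RefSeq start site, read 5′ to 3′ on the gene's own strand, from RefSeq on build GRCm38.p6. Capitals mark TGACGTCA, the palindrome bound by CREB and ATF proteins (the cyclic AMP response element), and in Cebpb its shorter core TGACG. Atf5, the member with the largest difference after Cebpb, is shown for comparison and holds neither. The stretch shown is not from its only window, and no Atf5 window holds either motif.
Cebpb, chr2:167688815-167688914, plus strand: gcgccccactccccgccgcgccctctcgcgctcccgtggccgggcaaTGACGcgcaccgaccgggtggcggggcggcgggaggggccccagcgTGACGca
Hlf, chr11:90390918-90391017, minus strand: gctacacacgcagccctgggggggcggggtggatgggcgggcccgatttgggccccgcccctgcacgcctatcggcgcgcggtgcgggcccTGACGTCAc
Creb5, chr6:53287203-53287302, plus strand: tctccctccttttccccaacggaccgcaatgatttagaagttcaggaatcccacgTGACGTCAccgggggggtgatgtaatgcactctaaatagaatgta
Maff, chr15:79347420-79347519, plus strand: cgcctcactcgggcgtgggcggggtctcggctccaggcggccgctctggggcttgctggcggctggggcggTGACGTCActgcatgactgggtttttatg
Atf5, chr7:44816659-44816758, minus strand: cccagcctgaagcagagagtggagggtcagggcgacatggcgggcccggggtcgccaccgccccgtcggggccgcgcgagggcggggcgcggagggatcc

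The RefSeq table held 46 promoter windows for 32 of the 41 members, and each motif was searched on both strands in the 250 bases before the start site. TGACGTCA was in 3 of the 46 windows (6.52%), against 1.55% of all 32851 windows: that of Hlf, 1 of the 2 windows of Creb5 and 1 of the 3 windows of Maff. The core TGACG, which every TGACGTCA also contains, was in 17 windows (37.0%), against 17.8% of all windows. The C/EBP palindrome TTGCGCAA was in 0 member windows, against 0.164% of all windows, and its looser form TTGCNNAA was in 2, those of Maff and Xbp1 (4.35%, against 9.56%). TTATGTAA, the D-box of PAR factors, was in 1 window, of Jdp2 (2.17%, against 0.819%). TGACNNNGC, the antioxidant element of CNC and small MAF dimers, was in 6 windows (13.0%, against 10.2%). These matches are descriptions of the letters, with no measurement of binding.

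Per array, 50.9% to 57.2% of spots passed the scanner software's test of being well above background. The array WT 4 stood apart: its profile correlated at 0.954 with the mean of its group's other arrays, against 0.984 to 0.990 for the other 8 arrays. Over 9 markers of forestomach squamous epithelium, of which 0 passed the test, the mean level relative to the WT mean was −1.71 on WT 4 and 0.47 to 0.70 on the other WT arrays, and −1.10 to 0.17 on the KO arrays. All 7 gastric surface markers passed the filter on dim probes, so the labelled tissue had its markers. The 7 were higher in KO, and Gkn2 (gastrokine 2, a surface mucous cell protein) rose by 1.77 (adjusted p = 0.0280). Their mean relative to the WT mean was 0.92 to 1.37 on KO arrays and −0.34 to 0.74 on WT arrays. The 7 smooth muscle markers were all lower in KO, and 0 of them passed the test. In a whole stomach, fewer cells of a type and less RNA per cell cannot be told apart, and the part of cell makeup in the differences below was not tested. The mean over 3 Y-linked genes relative to the WT mean was −4.93, −6.24 and −6.84 on KO 2, KO 4 and KO 5 and −0.13 and 0.08 on KO 1 and KO 3, against −0.17 to 0.26 on the 4 WT arrays. A low Y-linked level was thus found on 3 KO arrays and on no WT array. Sex, which the labels do not give, therefore cannot be fully told apart from genotype in the differences below. On KO 2, 1 of the 3 genes, Eif2s3y, still passed the background test, at a level of −3.37, against 1.62 to 2.26 on the 6 arrays with a high Y-linked level. Values from fits with Y-linked level as covariate, and from those 6 arrays alone (chosen after the data were seen), are given for members whose difference they moved by over 1.5-fold. Slide 1 carried KO 4, KO 5, WT 3 and WT 4, slide 4 carried KO 2, WT 1 and WT 2, and slides 2 and 3 carried KO 3 and KO 1. Differences within slides 1 and 4, and with the slide as a block, thus set only KO arrays with a low Y-linked level against WT arrays. In them genotype and sex cannot be told apart, and slide 4 held 1 KO array. In the sample titles, the numbers of KO 1 and KO 2 lie near those of WT 1 to WT 3. Those of KO 3, KO 4 and KO 5 lie further away, and WT 4 has a code with a letter. The part of this split in the differences was not tested.

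Cebpb itself fell, and it was the only one of the 39 members to pass the test. Its relative level was −2.74, −2.87, −1.58, −2.04 and −1.68 in KO 1 to KO 5, against 3.71, 3.21, 3.28 and 3.00 in WT 1 to WT 4. Every KO array lay below every WT array, and the gap between the groups was far wider than the spread inside either. The KO signal averaged 2.24% of the WT signal, a 44.7-fold difference, or −5.48 ± 0.30 on the log2 scale (SE, n = 5 and 4; limma adjusted p = 0.000123). The probe was still well above background on all 5 KO arrays. It lies at chr2:167515828-167515887 on mm9, and whether the knockout removes that stretch is not given in the sources used here. The difference was −5.00 within slide 1 and −6.33 within slide 4, and −5.53 with the slide as a block (limma adjusted p = 0.00819).

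**Figure D1:**
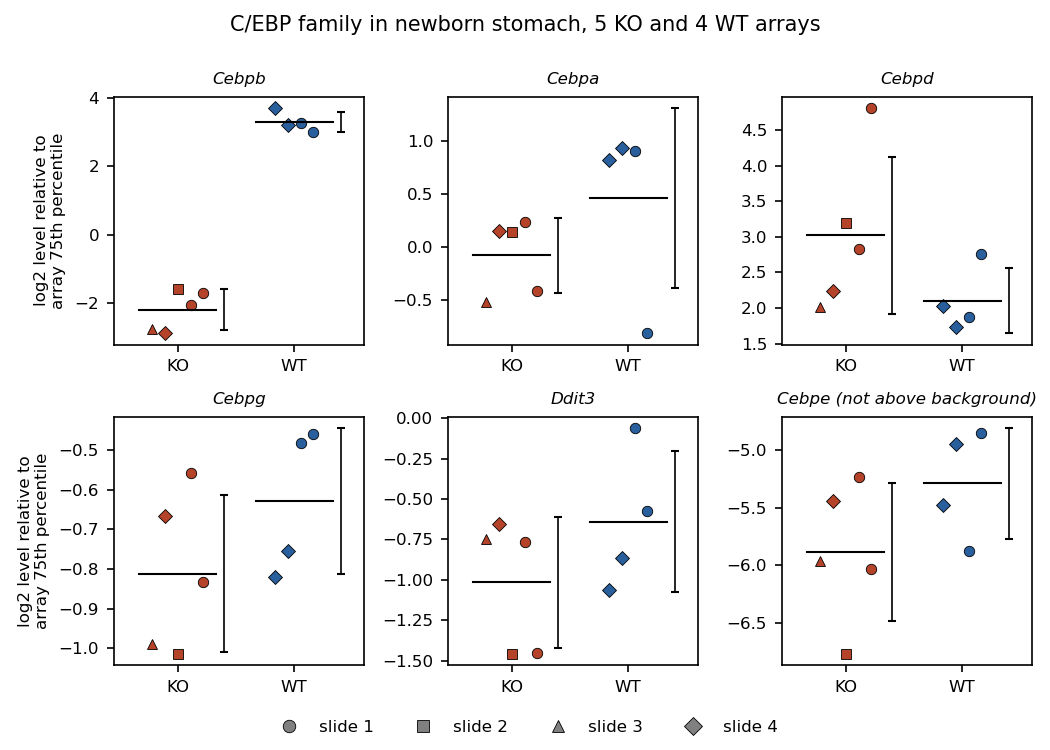
Relative level (log2, array 75th percentile at 0) of the C/EBP genes on each array, KO left in red and WT right in blue, with marker shapes for the slides, a line at the group mean and a bar for ± 1 SD (n = 5 KO and 4 WT). Each panel has its own axis. Only Cebpb separates widely, with KO between −2.87 and −1.58 and WT between 3.00 and 3.71. WT 4 is the lowest Cebpa value and KO 5 the highest Cebpd value, and Cebpe is not well above background on any array.

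None of the other C/EBP genes passed the test. Cebpa (C/EBPα), which drives differentiation of fat, liver and granulocytes, had levels of −0.52, 0.15, 0.14, 0.23 and −0.41 in KO 1 to KO 5, against 0.82, 0.94, 0.90 and −0.82 in WT 1 to WT 4. All 5 KO arrays lay below 3 of the WT arrays, but WT 4 was the lowest of the 9. The difference was −0.54 ± 0.37 (SE; limma adjusted p = 0.765), with −0.13 within slide 1 and −0.73 within slide 4. Without WT 4 it was −0.97, the groups no longer overlapped, and the adjusted p was 0.0794. WT 4 was also the array with the lowest squamous marker level, as given above, and the part of squamous tissue in the Cebpa values was not tested.

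Cebpd (C/EBPδ), an acute-phase and early adipogenic factor, was high on a few KO arrays. Its levels were 2.02, 2.25, 3.19, 2.84 and 4.81 in KO 1 to KO 5, against 2.03, 1.74, 1.87 and 2.76 in WT 1 to WT 4. KO 1 and KO 2 lay inside the WT range, whereas KO 3, KO 4 and KO 5 lay above it. The mean difference of 0.92 ± 0.51 (95% interval −0.22 to 2.06; limma adjusted p = 0.681) did not pass the test. It was close to the SD within groups of 0.887, and it was 0.47 without KO 5. Within slide 1 it was 1.51 and within slide 4 it was 0.36. With Y-linked level as covariate it was 0.37, and on the 6 arrays with a high Y-linked level 0.51. The same 3 KO arrays had the highest mean over 10 immediate early genes relative to the WT mean, at 0.62, 1.32 and 1.05, with −0.22 and 0.24 on KO 1 and KO 2 and −0.11 to 0.11 on the WT arrays. None of those 10 genes passed the test, 7 of them were higher in KO, and their part in the Cebpd values was not tested.

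The 2 members that lack a usual activation domain or dampen C/EBP dimers differed less. Cebpg (C/EBPγ), which forms heterodimers with ATF4 and other C/EBPs, averaged −0.81 ± 0.20 in KO and −0.63 ± 0.18 in WT (SD, n = 5 and 4), with a range of −1.01 to −0.56 in KO and −0.82 to −0.46 in WT. The groups overlapped, with a difference of −0.18 ± 0.16 (SE; limma adjusted p = 0.824), and it was −0.22 within slide 1, 0.12 within slide 4, −0.35 with the Y-linked covariate and −0.37 on the 6 arrays with a high Y-linked level. Ddit3 (CHOP), a stress-induced partner of C/EBPs, had levels of −0.74, −0.66, −1.46, −0.77 and −1.45 in KO 1 to KO 5, against −1.06, −0.87, −0.06 and −0.58 in WT 1 to WT 4. KO 3 and KO 5 were the lowest and the rest overlapped, with a difference of −0.37 ± 0.26 (SE; limma adjusted p = 0.771) that was −0.79 within slide 1 and 0.31 within slide 4. Without WT 3 it was −0.18. Cebpe (C/EBPε), a factor of late granulocyte maturation, stayed below that background test on all 9 arrays and entered no fit. Of 9 granulocyte markers 6 were tested, with 3 higher and 3 lower in KO, and 1 passed the test. That gene was S100a9, which was lower in KO, at −2.77 ± 0.36 (SE; limma adjusted p = 0.0160). The part of granulocytes in the C/EBP values was not tested. Of 7 regulators of C/EBP proteins, 0 passed the test and 6 were higher in KO. Id2, an inhibitor of helix-loop-helix factors, had the smallest p of these, at 0.67 ± 0.26 (SE; limma adjusted p = 0.507).

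Across the 39 members, 1 (Cebpb) passed an adjusted p of 0.05, where 0.207% of all genes tested did. At an unadjusted limma p below 0.05 there were 7 members (17.9%), where 8.72% of all genes had such a p: Cebpb, Atf5, Hlf, Bach2, Creb5, Atf2 and Maf. In 4 members (10.3%) no KO array overlapped a WT array, namely Cebpb, Atf5, Atf2 and Hlf, where 3.39% of all genes did so. Cebpb, the gene knocked out, is in each of these counts. Without it, 6 of 38 members (15.8%) had an unadjusted limma p below 0.05, and 3 (7.89%) had groups that did not overlap. Over all 39 members, differences were positive in 21 and negative in 18, with a median of 0.03 beside 0.00494 over all genes tested. Without Cebpb, 34 of 38 members (89.5%) had a difference under 1.5-fold either way, as did 90.7% of all genes tested. The 95% interval of 31 members (81.6%) lay inside 2-fold either way, beside 73.9% of all genes tested. The lists of pathway genes given with the members below held 0 genes past the threshold in limma, and the number with an unadjusted p below 0.05 was 2 of 11 ATF4 targets, 2 of 7 AP-1 genes, 1 of 7 C/EBP regulators, 1 of 7 CREB partners, 1 of 7 clock genes, 1 of 13 NRF2 genes, 0 of 12 XBP1 and ATF6 targets and 0 of 8 stress kinases and sensors.

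**Figure D2:**
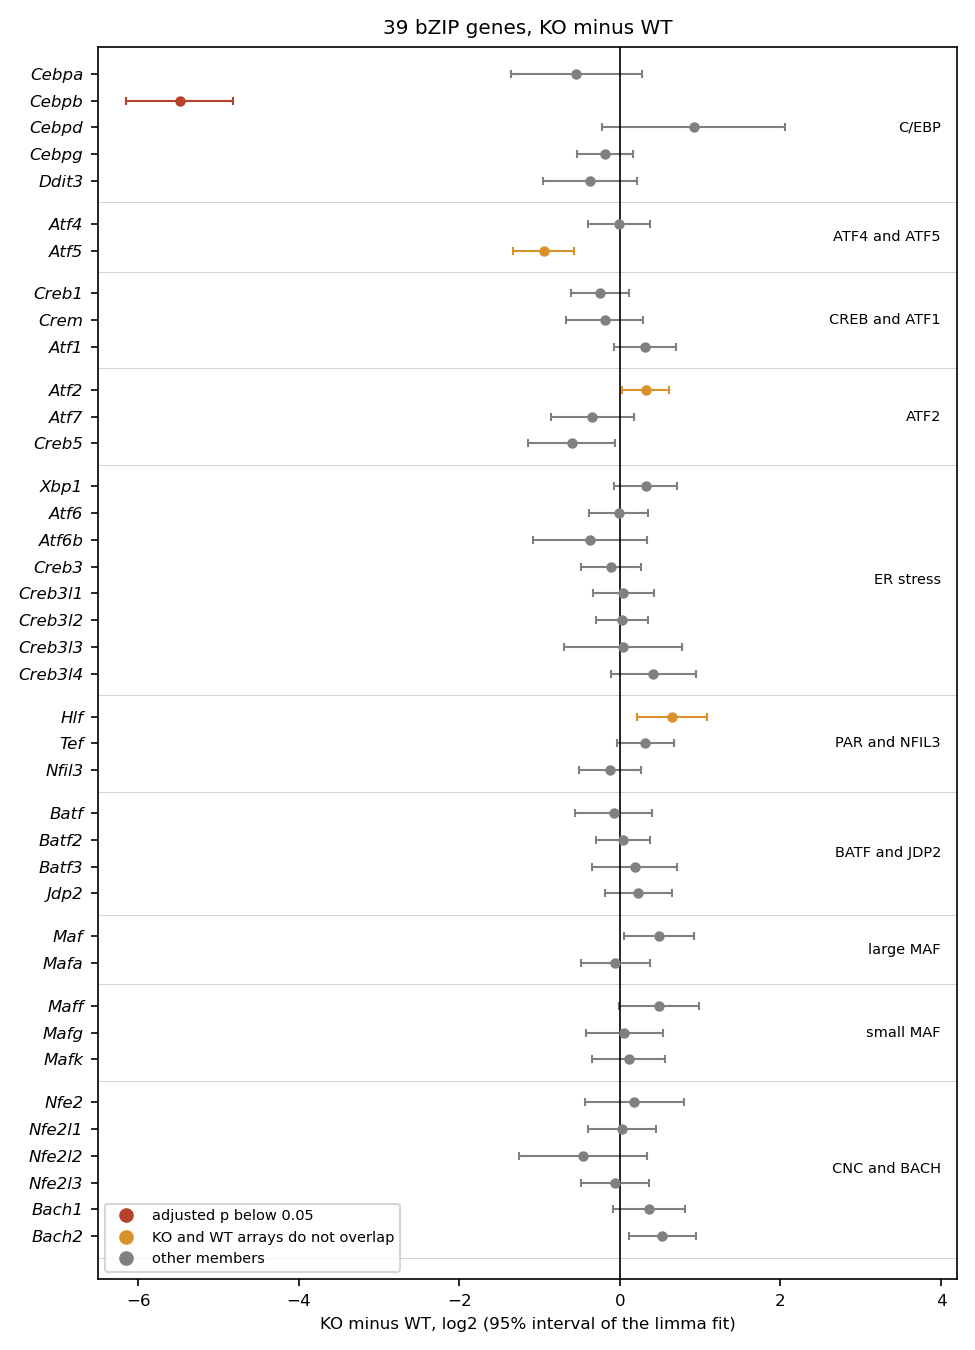
KO minus WT difference (log2) of the 39 tested members with its 95% interval from limma, grouped by role, with Cebpb in red and Atf5, Atf2 and Hlf, whose arrays do not overlap, in orange. Cebpb stands at −5.48 and every other member lies between −0.95 and 0.92.

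Atf5 had the largest difference after Cebpb, without passing the test. ATF5 is a stress-responsive factor that is translated under amino acid shortage and mitochondrial stress, as ATF4 is. Its levels were 4.42, 4.34, 4.46, 3.99 and 3.81 in KO 1 to KO 5, against 5.08, 5.21, 5.09 and 5.23 in WT 1 to WT 4. Every KO array lay below every WT array, and the WT arrays lay within a narrow band. The KO signal averaged 51.8% of the WT signal, a difference of −0.95 ± 0.17 (SE; limma adjusted p = 0.0836; exact two-sided permutation p = 0.00794, the smallest that 5 against 4 arrays allow). It was −1.26 within slide 1 and −0.81 within slide 4, and −1.08 with the slide as a block (limma adjusted p = 0.267). With array weights, which gave WT 4 a weight of 0.217 and the others 0.700 to 3.47, the adjusted p was 0.0171. The 1 Atf5 probe lies at chr7:52067627-52067686 on mm9.

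Atf4, the main factor of the integrated stress response, averaged 5.91 ± 0.15 in KO and 5.92 ± 0.31 in WT (SD, n = 5 and 4). The difference of −0.01 had a 95% interval of −0.40 to 0.38. The other Atf4 probe, also well above background on all 9 arrays, differed by −0.29. Of 11 ATF4 targets 0 passed the test, with 5 higher and 6 lower in KO and a median of −0.20. Atf3, a stress and immediate early bZIP gene, had the smallest p of these. Its levels were −1.60, −0.31, 0.04, 0.44 and 0.84 in KO 1 to KO 5, against −1.30, −1.24, −1.29 and −1.17 in WT 1 to WT 4. KO 1 lay below all WT arrays and the other KO arrays above them, with a difference of 1.13 ± 0.41 (SE; limma adjusted p = 0.474). It was 0.42 with the Y-linked covariate and 0.47 on the 6 arrays with a high Y-linked level.

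**Figure D3:**
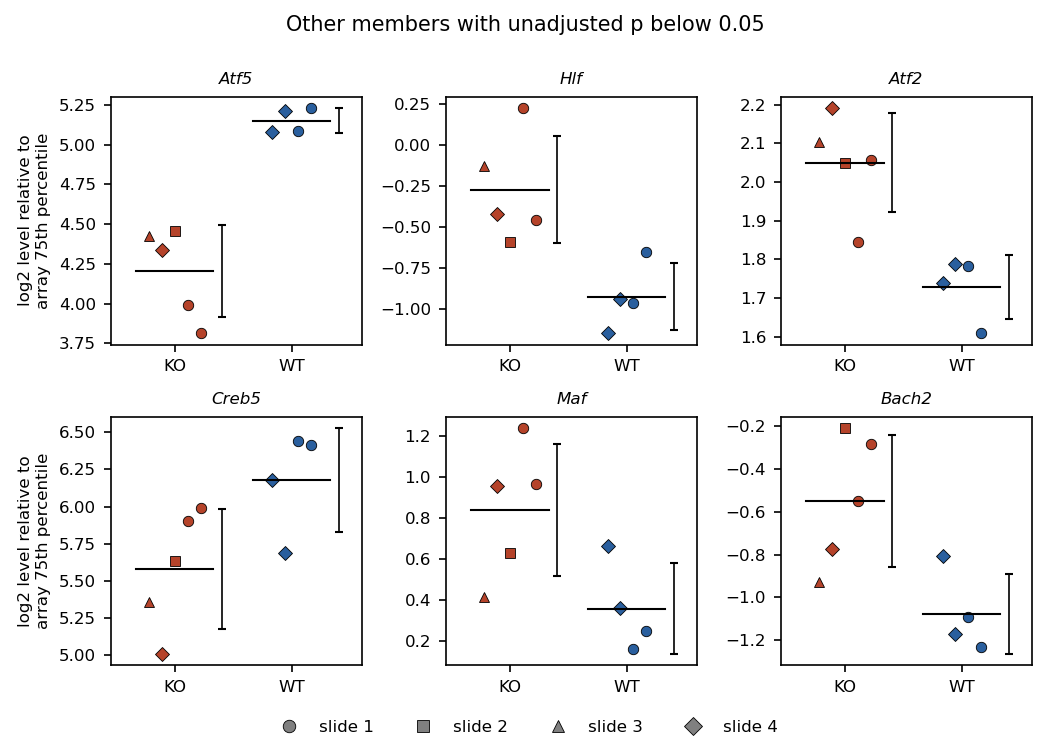
Relative level (log2, array 75th percentile at 0) on each array of the 6 members other than Cebpb with an unadjusted limma p below 0.05, KO left in red and WT right in blue, with marker shapes for the slides, a line at the mean and a bar for ± 1 SD. The arrays of Atf5, Hlf and Atf2 do not overlap, whereas 1 or more arrays do so for Creb5, Maf and Bach2. Each panel has its own axis.

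The cyclic AMP factors showed small differences. Creb1 (CREB) averaged −2.31 ± 0.23 in KO and −2.06 ± 0.17 in WT, and Crem, its modulator, averaged −1.55 ± 0.31 in KO and −1.36 ± 0.34 in WT (SD, n = 5 and 4). The Creb1 difference was −0.24 at the probe used and 0.38 at its other measured probe, so the probes disagreed in sign. Those of Crem did so too, with −0.19 at the probe used and 0.09 at the other measured probe. Atf1 had levels of 1.32, 1.38, 1.76, 1.20 and 1.75 in KO 1 to KO 5, against 1.33, 1.07, 0.95 and 1.30 in WT 1 to WT 4. Only KO 3 and KO 5 stood clearly above the WT arrays, and the difference was 0.32 ± 0.17 (SE; limma adjusted p = 0.665). The array design places that Atf1 probe on chromosome X and the 2 other Atf1 probes on chromosome 15, and the other measured probe differed by 0.05. Of 7 CREB coactivators and partners 0 passed the test, with 4 higher and 3 lower. Crtc3, a cyclic AMP-regulated CREB coactivator, had the smallest p, at 0.40 ± 0.15 (SE; limma adjusted p = 0.500).

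Among the ATF2 relatives, which bind the same palindrome and pair with Jun proteins, Creb5 was lower and Atf2 higher in KO, without passing the test. Creb5 had levels of 5.36, 5.01, 5.63, 5.90 and 5.99 in KO 1 to KO 5, against 6.18, 5.68, 6.44 and 6.41 in WT 1 to WT 4. All KO arrays lay below 3 of the WT arrays, and WT 2 lay among the KO arrays. The difference was −0.60 ± 0.24 (SE; limma adjusted p = 0.517), with −0.48 within slide 1 and −0.92 within slide 4. With array weights it was −0.32 (adjusted p = 0.408). The promoter shown above is 1 of its 2 windows, and the other holds no palindrome.

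Atf2 had levels of 2.10, 2.19, 2.05, 1.84 and 2.06 in KO 1 to KO 5, against 1.74, 1.79, 1.78 and 1.61 in WT 1 to WT 4. The groups did not overlap, and the closest arrays were KO 4 and WT 2. The difference was 0.32 ± 0.13 (SE; limma adjusted p = 0.518; exact two-sided permutation p = 0.0159), with 0.26 within slide 1 and 0.43 within slide 4. It rested on 1 of 4 probes: the 3 others differed by −0.19 to 0.10, and the mean over all 4 by 0.04. Atf7 averaged −2.42 ± 0.28 in KO and −2.08 ± 0.44 in WT (SD), with overlapping arrays and a limma adjusted p of 0.763. The other measured Atf7 probe differed by −0.07.

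The 7 measured AP-1 genes, the bZIP genes that ATF2 and JDP2 pair with, were all higher in KO, and 0 of them passed the test. Fos had the smallest p, with levels of −1.05, −0.52, −0.25, 1.20 and 0.54 in KO 1 to KO 5, against −1.32, −1.37, −1.53 and −1.26 in WT 1 to WT 4. The groups did not overlap, but the KO arrays differed widely among themselves while the WT arrays did not. The difference was 1.35 ± 0.40 (SE; limma adjusted p = 0.362), with 0.64 under the Y-linked covariate and 0.71 on the 6 arrays with a high Y-linked level. The median over the 7 genes was 0.26. Fos, Junb and Atf3 also belong to the immediate early genes described beside Cebpd.

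The 8 factors of the endoplasmic reticulum, which are activated by splicing of their RNA or by cleavage at the Golgi, held 0 members that passed the test. Xbp1, whose spliced form drives secretory capacity, had levels of 5.53, 5.79, 5.72, 5.15 and 5.76 in KO 1 to KO 5, against 5.25, 5.30, 5.03 and 5.50 in WT 1 to WT 4. Of the KO arrays, KO 4 lay inside the WT range and the others above it. The difference was 0.32 ± 0.17 (SE; limma adjusted p = 0.664), with 0.19 within slide 1 and 0.52 within slide 4. Of the 7 others, Atf6, Atf6b, Creb3, Creb3l1, Creb3l2, Creb3l3 and Creb3l4, the differences ran from −0.37 in Atf6b to 0.42 in Creb3l4. Creb3l3, known from liver and intestine, varied most between WT arrays of these, from 0.29 on WT 4 to 1.69 on WT 2. Of 12 XBP1 and ATF6 targets 0 passed the test, with 6 higher and 6 lower and a median of 0.03. Herpud1, a factor of protein degradation at the endoplasmic reticulum, had the smallest p, at 0.40 ± 0.35 (SE; limma adjusted p = 0.834), with no value on WT 3, whose spot had an outlier mark. Without WT 4 the Herpud1 difference was 0.82, and without WT 1 it was 0.15. Of 8 stress kinases and sensors upstream 0 passed, and Mbtps2, a protease that releases ATF6, had the smallest p, at −0.31 ± 0.16 (SE; limma adjusted p = 0.650).

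Hlf, a PAR factor that binds D-boxes and follows the circadian clock, was higher on all KO arrays, without passing the test. Its levels were −0.12, −0.42, −0.59, 0.23 and −0.46 in KO 1 to KO 5, against −1.15, −0.94, −0.96 and −0.65 in WT 1 to WT 4. The groups did not overlap, although KO 3 and WT 4 lay close together. The KO signal averaged 1.57-fold the WT signal, a difference of 0.65 ± 0.20 (SE; limma adjusted p = 0.372; exact two-sided permutation p = 0.0159). It was 0.69 within slide 1, 0.63 within slide 4 and 0.67 with the slide as a block (limma adjusted p = 0.664). The single Hlf probe lies at chr11:90200696-90200755 on mm9.

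Its relatives were read beside it. Tef, named after its values were seen, had levels of 3.88, 3.68, 3.95, 4.08 and 4.29 in KO 1 to KO 5, against 3.80, 3.53, 3.53 and 3.77 in WT 1 to WT 4. Only KO 2 lay inside the WT range, and the difference was 0.32 ± 0.16 (SE; limma adjusted p = 0.631), with 0.54 within slide 1, 0.01 within slide 4 and 0.21 with the Y-linked covariate. Nfil3, the repressor that competes with PAR factors for D-boxes, averaged 1.37 ± 0.30 in KO and 1.49 ± 0.09 in WT (SD, n = 5 and 4), with a difference of −0.12.

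Of 7 clock genes listed with the PAR factors, 0 passed the test and all 7 were higher in KO, with a median of 0.56. Dbp, the remaining PAR factor, had the smallest p of these, with levels of 2.69, 2.54, 3.20, 2.92 and 2.52 in KO 1 to KO 5, against 2.33, 2.31, 2.13 and 2.30 in WT 1 to WT 4. The groups did not overlap, and the difference was 0.50 ± 0.17 (SE; limma adjusted p = 0.432). The mean over the 7 genes relative to the WT mean was 0.06, −0.07, 1.41, 0.50 and 0.92 in KO 1 to KO 5, against −0.06, −0.28, −0.10 and 0.44 in WT 1 to WT 4. KO 1 and KO 2 thus lay within the WT range, and KO 3, KO 4 and KO 5 above it. The hour at which each mouse was killed is not given in the sources used here.

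**Figure D4:**
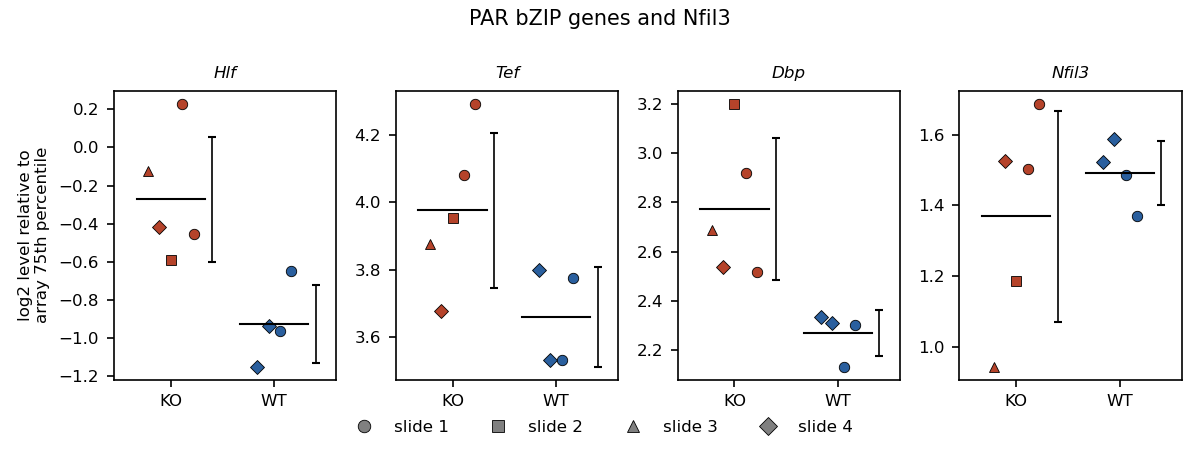
Relative level (log2, array 75th percentile at 0) on each array of the PAR genes Hlf, Tef and Dbp and of their competitor Nfil3, KO left in red and WT right in blue, with marker shapes for the slides, a line at the mean and a bar for ± 1 SD. KO and WT arrays do not overlap for Hlf and Dbp, overlap slightly for Tef and overlap widely for Nfil3. Each panel has its own axis.

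The BATF genes and Jdp2, which dampen or redirect AP-1 dimers, had differences of −0.08 (Batf), 0.04 (Batf2), 0.19 (Batf3) and 0.23 (Jdp2). Jdp2 had the smallest p of these, with levels of 1.06, 1.05, 1.47, 1.04 and 1.73 in KO 1 to KO 5, against 1.13, 1.21, 1.03 and 0.82 in WT 1 to WT 4. KO 3 and KO 5 stood above the WT arrays, and the other KO arrays lay inside the WT range. The limma adjusted p was 0.816, and the difference was 0.46 within slide 1 and −0.11 within slide 4. Without KO 5 it was 0.11, and without WT 4 it was 0.15.

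Of the large MAF genes, Maf (c-MAF), a factor of lens, T cells and macrophages, was higher in KO without passing the test. Its levels were 0.42, 0.96, 0.63, 1.24 and 0.97 in KO 1 to KO 5, against 0.66, 0.36, 0.16 and 0.25 in WT 1 to WT 4. WT 1 lay among the KO arrays, and the other WT arrays lay below all of them. The difference was 0.48 ± 0.20 (SE; limma adjusted p = 0.520; exact two-sided permutation p = 0.0397), with 0.90 within slide 1, 0.45 within slide 4 and 0.19 at the other measured probe. With Y-linked level as covariate it was 0.16, as on the 6 arrays with a high Y-linked level. Of the leukocyte and macrophage markers, 6 of 8 were higher in KO and 0 passed the test, with means relative to the WT mean of −0.24 to 0.44 in KO and −0.83 to 0.39 in WT. Cryaa (αA-crystallin), a lens protein in the list of lens, retina and lung markers, rose by 1.78 ± 0.24 (SE; limma adjusted p = 0.0205), and the part of either list in the Maf values was not tested. Mafa, known from pancreatic beta cells, averaged 1.59 ± 0.12 in KO and 1.65 ± 0.40 in WT (SD). Nrl, the retinal rod factor, was well above background on 1 array, KO 3, and was not tested.

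The small MAF proteins lack an activation domain and join CNC proteins as obligate partners. Maff, whose promoter is shown above, had levels of 0.10, 0.36, 0.79, 0.74 and 1.24 in KO 1 to KO 5, against 0.21, 0.16, 0.03 and 0.24 in WT 1 to WT 4. KO 1 lay inside the WT range and the other KO arrays above it, with a difference of 0.49 ± 0.22 (SE; limma adjusted p = 0.576). It was 0.235 with the Y-linked covariate and 0.29 on the 6 arrays with a high Y-linked level. As with Cebpd, the KO 3, KO 4 and KO 5 arrays were the highest. Mafg and Mafk differed by 0.06 and 0.11, and 1 WT array, WT 4, lay far above the other WT arrays for Mafg. The 3 other Mafg probes differed by −0.14 to −0.03.

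Among the CNC and BACH genes, Bach2, a repressor best known from lymphocytes, had the smallest p. Its levels were −0.93, −0.78, −0.21, −0.55 and −0.28 in KO 1 to KO 5, against −0.81, −1.17, −1.09 and −1.23 in WT 1 to WT 4. KO 1 lay below WT 1 and the other KO arrays above all WT arrays. The difference was 0.53 ± 0.19 (SE; limma adjusted p = 0.454; exact two-sided permutation p = 0.0317), with 0.74 within slide 1 and 0.22 within slide 4. The other Bach2 probe, well above background on 6 arrays, differed by 0.01, and the mean over both by 0.27. Bach1, the haem-sensitive repressor of antioxidant elements, averaged 0.66 ± 0.30 in KO and 0.30 ± 0.29 in WT (SD, n = 5 and 4).

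Nfe2l2 (NRF2), the activator of antioxidant elements, is named after its values were seen. Its levels were 3.74, 3.88, 2.05, 3.61 and 2.66 in KO 1 to KO 5, against 3.63, 3.81, 3.53 and 3.62 in WT 1 to WT 4. KO 3 and KO 5 lay well below the WT arrays and the other KO arrays at their level, with a difference of −0.46 ± 0.36 (SE; limma adjusted p = 0.804) that was −0.18 without KO 3. Within slide 1 it was −0.44 and within slide 4 it was 0.16, and on the 6 arrays with a high Y-linked level it was −0.75. The remaining CNC genes Nfe2, Nfe2l1 and Nfe2l3 differed by 0.18, 0.03 and −0.06. The other Nfe2l3 probe differed by 0.35. Of 13 genes made up of NRF2 targets and its inhibitor Keap1, 0 passed the test, with 7 higher and 6 lower and a median of 0.03. Slc7a11, the cystine transporter shared with the ATF4 targets, had the smallest p of these, at −1.66 ± 0.72 (SE; limma adjusted p = 0.557). Its levels ran from −6.71 to −3.79 in KO and from −5.97 to −3.13 in WT, and its probe was well above background on 1 KO array and 3 WT arrays.

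**Figure D5:**
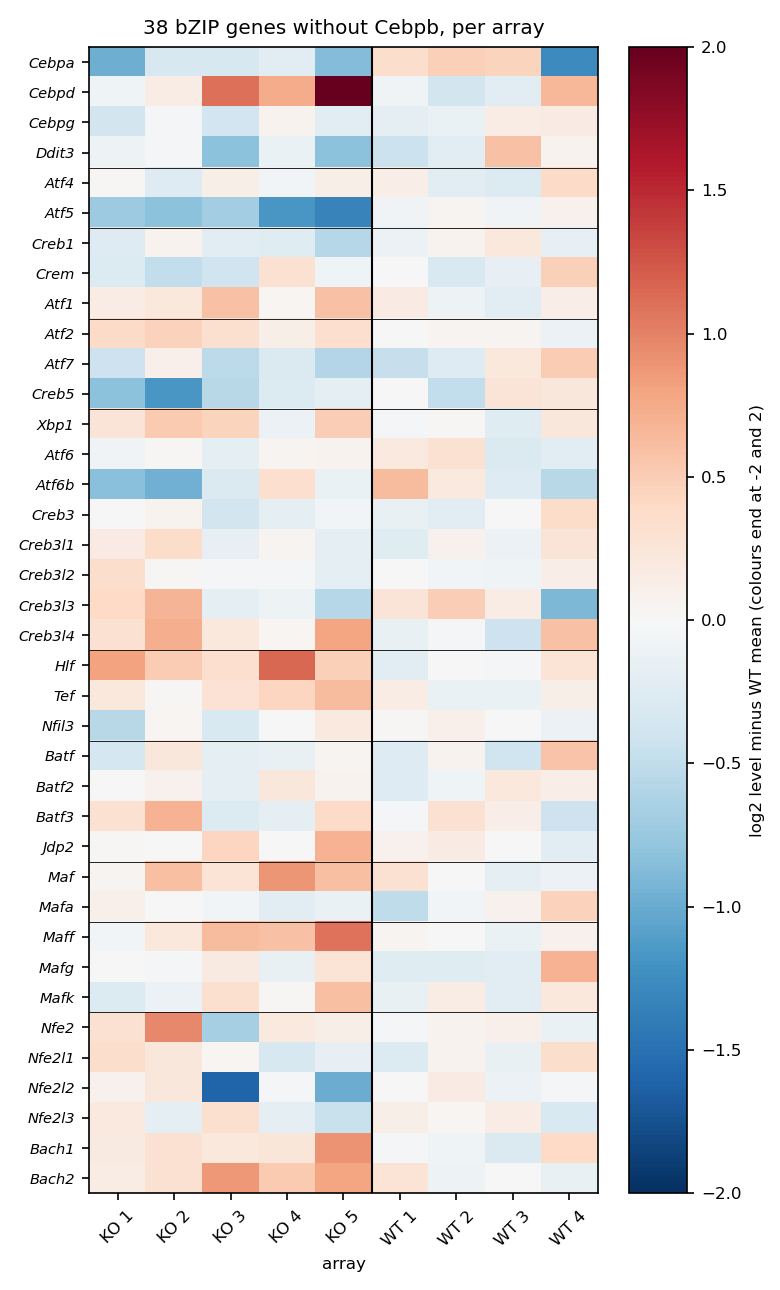
Level of each of 38 tested members (Cebpb left out) on each array, as log2 difference from the member's WT mean, in role order, with KO arrays left of the black line and WT arrays right. Colours end at −2 and 2, and the Cebpd value on KO 5 lies beyond. Atf5 is low on all 5 KO arrays and Hlf and Atf2 are high on all 5, whereas Cebpd on KO 5 and Nfe2l2 on KO 3 and KO 5 differ on single arrays.

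All 39 tested members were well above background on all 9 arrays, as were 85.2% of all genes tested, so that no member was tested from the signal of 1 group alone. The median SD within groups was 0.283 over the 39 members and 0.350 over all genes tested. It was highest in Cebpd (0.887), Cebpa (0.620) and Nfe2l2 (0.605). WT 4 held the highest or lowest WT level for 30 of the 38 members without Cebpb (78.9%), where it did so for 76.7% of all genes. Without WT 4, 1 member passed the test, as with it, while the number whose groups did not overlap was 8: Cebpb, Atf5, Atf2 and Hlf with Cebpa, Creb3l4, Mafg and Bach1. Over all genes, that number was then 2676 of 21737.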

How the data were processed

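Total RNA of 9 stomachs, 1 per mouse, was copied from oligo dT and labelled with Cy3, per the labels. The deposited scanner files hold spot intensity on a linear scale, made by the authors with Feature Extraction 10.5.1.1 per the file headers (9.1 per the submitters' processing notes), background-subtracted (with spatial detrending and surrogates for dim spots) and not normalized between arrays. Other values in the deposited files are flags per spot (well above background, saturated, outlier). The series matrix, also made by the authors, gives log2 values. Its differences between arrays followed log2 of the processed signal (median deviation 1.52e-07), which settles scale and direction, while what it was centred on stays unknown. Its column medians in KO 1 to KO 5 were 0.0436, 0.217, −0.124, 0.0347 and −0.137, and those in WT 1 to WT 4 were −0.279, −0.161, 0.224 and 0.381.

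Of 62976 spots per array, 3671 were controls, which were dropped together with outlier-flagged spots. Spots of a probe were averaged (55681 probes), log2 signal was set to the array's 75th percentile, and a probe was used if at least 4 of the 9 arrays had it well above background. The brightest such probe on average stood for its gene. The array design gives the names, updated by accession through RefSeq (GRCm38.p6) for 26762 probes, and probe coordinates are the design's on mm9. The KO minus WT fit, without covariates, used lmFit and eBayes of limma 3.58.1 (R 4.3.3), its p-values were two-sided, and they were adjusted by Benjamini-Hochberg over all 21737 genes, with a threshold of 0.05. Exact permutation tests ran over all 126 divisions into 5 and 4 arrays. The fit was tested on simulated data. The number of arrays limits the precision.

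Values on every array are given for the C/EBP genes, for members past the threshold, with unadjusted p below 0.05 or without overlap, and for the smallest p of each role group. In each pathway list the gene with the smallest p is named. The members and lists were chosen with earlier results of these data known. Alternatives covered background correction, normalization, the series matrix, the dim probe filter, the probe rule, slide, mouse number, Y-linked level, array weights and each array left out. Where mice are numbered, the labels do not say whether they share litters. A comparison of protein sequences was planned and no protein table was used here.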

Additional observations from a re-analysis of the deposited data

Results flagged for a closer look

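In 82 groups (41 members in KO and in WT), the highest or lowest array was set against the others by Dixon's ratio, which marks about 1 in 20 groups by chance, and 3 were marked. The Cebpa level of WT 4 was −0.82, against 0.82 to 0.94 on the other WT arrays. The Mafg level of WT 4 was 3.79, against 2.85 to 2.89 on the other WT arrays. The Bach1 level of KO 5 was 1.19, against 0.48 to 0.60 on the other KO arrays. No cause of these was tested.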

How the results depend on the processing

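The fall of Cebpb passed the test under all 21 alternatives (−5.63 to −4.53). Of 523 differences computed for 25 named genes under the alternatives, 522 kept their direction and their side of the threshold, 1 passed the threshold that it had missed (Atf5 with array weights, adjusted p = 0.0171), and 0 reversed. Only Cebpb of the 25 had passed in the fit reported, so keeping a side of the threshold says little about the size of a difference. Sizes moved: Atf2 ran from 0.04 to 0.39, Cebpd from 0.37 to 1.38 and Maf from 0.16 to 0.72. The number of genes past the threshold was 45 in the fit reported, 22 with no filter on dim probes, 5 with the slide as a block, 4 with the mean Y-linked level added as covariate, 523 with array weights, and 11 to 164 with each array left out in turn (164 without WT 4). On the 2 KO and 4 WT arrays with a high Y-linked level, an alternative added after seeing the data, it was 4. Mouse numbers did not pair the arrays: same-numbered deviations correlated at −0.305, 0.122, 0.153 and −0.483, and with the replicate block 4 genes passed, Cebpb among them. With array weights, 2 members passed, Cebpb and Atf5. The number of members whose groups did not overlap was 4 to 8 with each array left out, with no test behind it. It was 11 on the arrays with a high Y-linked level. Over all 21737 genes it was then 864 to 2676 and 2381, beside 736 on all arrays. With normexp it was 3 members, as Hlf then overlapped, and 667 of all genes. With array medians or the mean of all probes it was 3, as Atf2 then overlapped, and 485 or 729 of all genes. Members with an unadjusted limma p below 0.05 numbered from 3 on the arrays with a high Y-linked level to 16 with array weights. Over all genes that number was then 852 and 5220. Setting arrays to their median moved the median over all genes to 0.07 and over members to 0.10, and 25 members were then higher and 14 lower; with normexp 18 were higher and 21 lower. Beyond the values in the report, the Id2 difference was 0.43 and the Mbtps2 difference −0.19 with the Y-linked covariate, and that of Slc7a11 ran from −2.86 with that covariate to −0.57 with normexp. The cause of these shifts was not tested.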
